A study of Mus musculus with 4 samples.

Results

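The genes described here encode the aminoacyl-tRNA synthetases of the mouse and the proteins that hold some of them in a complex. They were listed by gene symbol and comprise 39 genes of the 20145 that the array names: 20 synthetases or subunits that act in the cytosol, 16 that act in mitochondria, and 3 scaffold proteins. Every one of the 39 had at least 1 probe, and the 48 probes of these genes are the basis of all values below. In all, 37 of the 39 genes gave a signal well above background on both arrays of at least 1 group and were tested. Yars and Nars2 did not, and their values are given without a test.

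Gene expression was measured in the BAT of male Tg mice, on 1 single-dye Agilent SurePrint G3 Mouse array for each of 2 vehicle-treated and 2 AP-treated mice. All of these mice carried maP2::Fv2E-PERK, a transgene in which the eIF2α kinase domain of PERK is fused to an Fv2E domain and expressed from the mouse aP2 (Fabp4) promoter. AP (AP20187) is a synthetic ligand that dimerizes Fv2E and so switches the kinase on, and the comparison asks what 12 h of that activation did in BAT. The mice were 8 weeks old, tissue was collected 12 h after an intraperitoneal injection, and the dose of AP is 1 ng/g in the sample labels and 0.05 mg/kg in the legend of the experiment. The aP2 promoter is also active in macrophages, and no arrays of mice without the transgene were analysed here, so an effect of AP apart from the kinase cannot be told apart from that of the kinase.

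Aminoacyl-tRNA synthetases join each amino acid to its tRNA, and the charged tRNAs are what ribosomes read. Cytosolic and mitochondrial ribosomes are served by largely separate sets of synthetases, all encoded in the nucleus, and the mitochondrial set bears the suffix 2. Phosphorylation of eIF2α lowers general protein synthesis but favors translation of ATF4, a transcription factor known to act on genes for amino acid synthesis, uptake and tRNA charging, among them many cytosolic synthetases. BAT is rich in mitochondria, which translate a few subunits of the respiratory chain with their own ribosomes.

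Every signal below is the log2 of the processed intensity minus the log2 of the 75th percentile of that array, so 0 is the level of that percentile, and a log2 fold change is the mean of the AP-treated mice minus the mean of the vehicle-treated mice. Mice are named by their group and replicate number. The 75th percentile was 119 and 159 intensity units on the vehicle arrays and 128 and 118 on the AP arrays, and 46.8%, 49.0%, 46.4% and 46.4% of spots were well above background. No spot was saturated.

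The tissue carried the markers of its label. All 9 brown adipocyte markers and all 5 general adipocyte markers were measured above background. The signal of Ucp1, the uncoupling protein of brown adipocytes, was 10.41 and 9.66 with vehicle and 9.66 and 10.25 with AP, and the groups overlapped. Cidea, a lipid droplet protein of brown adipocytes, was at 11.34 and 10.62 against 11.08 and 11.25, and again the groups overlapped. Of the 9 brown adipocyte markers 5 had a higher and 4 a lower mean with AP, with a median log2 fold change of 0.09. Both AP-treated mice lay below in 1, Adrb3, the β3-adrenergic receptor, and above in none. Among these markers Elovl3 and Dio2 varied widely within a group. Elovl3 was at 6.08 and -1.07 with vehicle and 3.52 and 5.76 with AP. Dio2 was at 0.49 and 1.53 with vehicle and -1.78 and 3.33 with AP. The summed linear signal of the 9, in units of the 75th percentile, was 6537 and 4079 with vehicle and 5131 and 5958 with AP. Vehicle replicate 2, in which the cytosolic synthetases were also lowest by their median, thus had the lowest sum. The sum over all genes tested was lowest in this mouse too, at 288960 and 237225 with vehicle and 262167 and 267964 with AP. In 6 of the 9 markers it lay below vehicle replicate 1, where 59.6% of all genes did. Prdm16, Ppargc1a and Dio2 were higher in it. Without this mouse the median log2 fold change of the cytosolic synthetases was 0.20, against 0.34 with all mice. Whether the low sum of brown adipocyte markers in vehicle replicate 2 had a part in the results was not tested.

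Among 8 genes known to respond to the ISR, which served as a check of the labels, Trib3 had the largest difference. Trib3, a pseudokinase induced by ATF4, was at 2.78 and 2.33 with vehicle and 6.26 and 8.01 with AP, giving a log2 fold change of 4.57 ± 0.63 (SE). Ddit3, the transcription factor CHOP, was at 2.18 and 1.86 against 3.03 and 4.22, a log2 fold change of 1.61 ± 0.45 (SE). Asns, the asparagine synthetase that ATF4 is known to induce, was at 5.49 and 4.79 against 5.86 and 6.76. In all 3 of these genes both AP-treated mice lay above both vehicle-treated mice, and replicate 2 lay above replicate 1 within the AP group. The list had a median log2 fold change of 1.12, and 5 of its 8 genes had both AP-treated mice above both vehicle-treated mice, against 20.1% of all genes tested. Atf4 itself was at 7.49 and 6.12 against 7.26 and 8.23, so its groups overlapped.

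None of the 24970 probes tested passed an adjusted p of 0.05 in limma with Benjamini-Hochberg adjustment (0% of probes), and the smallest adjusted p was 0.80. At an unadjusted limma p under 0.05 there were 1515 probes, and in genes, 3.78% of the 12790 tested were higher with AP at that level and 2.26% lower. The synthetases are therefore described by their values and by counts, each beside the same count over all genes. For any gene taken alone, the smallest p that an exact permutation test (two-sided) can reach with 2 mice against 2 is 0.33.

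The cytosolic synthetases were higher, on the whole, in the AP-treated mice. Of the 19 tested, 15 had a higher mean with AP and 4 a lower one, where 51.4% of all genes tested had a higher mean. Their median log2 fold change was 0.34, it stayed above 0 in all alternatives run, from 0.09 to 0.57, and that of all genes was 0.01. In 8 of the 19 both AP-treated mice lay above both vehicle-treated mice and in none did both lie below, where 20.1% of all genes had both above and 17.3% both below. These 8 were Eprs, Cars, Iars, Lars, Tars, Rars, Sars and Mars.

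Eprs encodes the fused enzyme that charges glutamate and proline. Its signal was 0.91 and 0.97 with vehicle and 1.72 and 2.44 with AP. The vehicle-treated mice nearly coincided, and both AP-treated mice lay well above them. The means were 0.94 ± 0.04 (SD, n = 2) and 2.08 ± 0.51 (SD, n = 2), a log2 fold change of 1.14 ± 0.31 (SE) or 2.20-fold. In limma the unadjusted p was 0.017 and the adjusted p 0.80. Eprs was the only cytosolic synthetase at an unadjusted limma p under 0.05. That count became 4 with normexp background correction, 5 with the median of each array and 2 with a variance trend. Eprs was also the only one at least 2-fold higher, where 2.74% of all genes were. With the median of each array, however, Cars, at 1.08, and Iars, at 1.02, were so too, and Eprs itself was at 0.91 with normexp and 0.98 in the authors' table.

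Cars, which charges cysteine, was at 3.62 and 2.92 with vehicle and 3.78 and 4.73 with AP. The lower AP-treated mouse, replicate 1, exceeded the higher vehicle-treated mouse by a small margin, and the means were 3.27 ± 0.50 and 4.26 ± 0.67 (SD, n = 2 each). The log2 fold change was 0.99 ± 0.44 (SE).

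Iars and Lars charge isoleucine and leucine, and both enzymes belong to the multisynthetase complex. Iars was at 2.58 and 2.41 with vehicle and at 2.80 and 4.05 with AP, giving a log2 fold change of 0.93 ± 0.46 (SE). Lars was at 2.90 and 2.78 with vehicle and at 3.27 and 4.21 with AP, giving a log2 fold change of 0.90 ± 0.37 (SE). For both genes AP replicate 1 lay a little above the vehicle-treated mice and AP replicate 2 far above.

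Tars, which charges threonine, was at 3.17 and 2.82 against 3.36 and 4.25, a log2 fold change of 0.81 ± 0.37 (SE). Its groups did not overlap, and AP replicate 2 again stood highest. Aars, which charges alanine, was at 4.26 and 3.87 with vehicle and at 4.15 and 5.38 with AP, giving a log2 fold change of 0.70 ± 0.47 (SE). In Aars the groups overlapped: AP replicate 1 lay between the vehicle-treated mice. For Cars, Iars, Lars and Tars the limma adjusted p was 0.80, and for Aars it was 0.81.

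Rars, which charges arginine, differed from the rest in how evenly its mice fell. It was at -1.73 and -1.70 with vehicle and at -1.24 and -1.23 with AP, so each group was tight and the groups were apart, with a log2 fold change of 0.47 ± 0.20 (SE). With normexp background correction it was 0.17. Sars, for serine, and Mars, for methionine, also had both AP-treated mice above, with log2 fold changes of 0.46 ± 0.27 and 0.30 ± 0.24 (SE). In Mars the groups were barely apart, since AP replicate 1 was at 2.37 and vehicle replicate 1 at 2.36.

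The other 10 tested cytosolic genes overlapped between the groups. Gars, whose enzyme charges glycine in both the cytosol and mitochondria, was at 6.99 and 6.42 against 6.73 and 7.57, a log2 fold change of 0.45 ± 0.39 (SE). Nars, Wars, Vars, Dars and Kars, for asparagine, tryptophan, valine, aspartate and lysine, had log2 fold changes between 0.34 for Nars and 0.06 for Kars. The Kars enzyme, like that of Gars, also serves mitochondria. Farsb and Hars, the β subunit of the phenylalanine enzyme and the histidine enzyme, stood at -0.02 and -0.03, Qars, for glutamine, at -0.11, and Farsa, the α subunit of the phenylalanine enzyme, at -0.37 ± 0.32 (SE). The signs of the smallest of these depend on the scaling: with the median of each array in place of the percentile Farsb was at 0.07 and Hars at 0.06, and in the authors' log2 table Dars was at -0.07 and Kars at -0.10. The probe of Yars, for tyrosine, was well above background only in AP replicate 2, at -2.34, and the other 3 mice measured -3.58, -4.27 and -3.87.

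**Figure D1:**
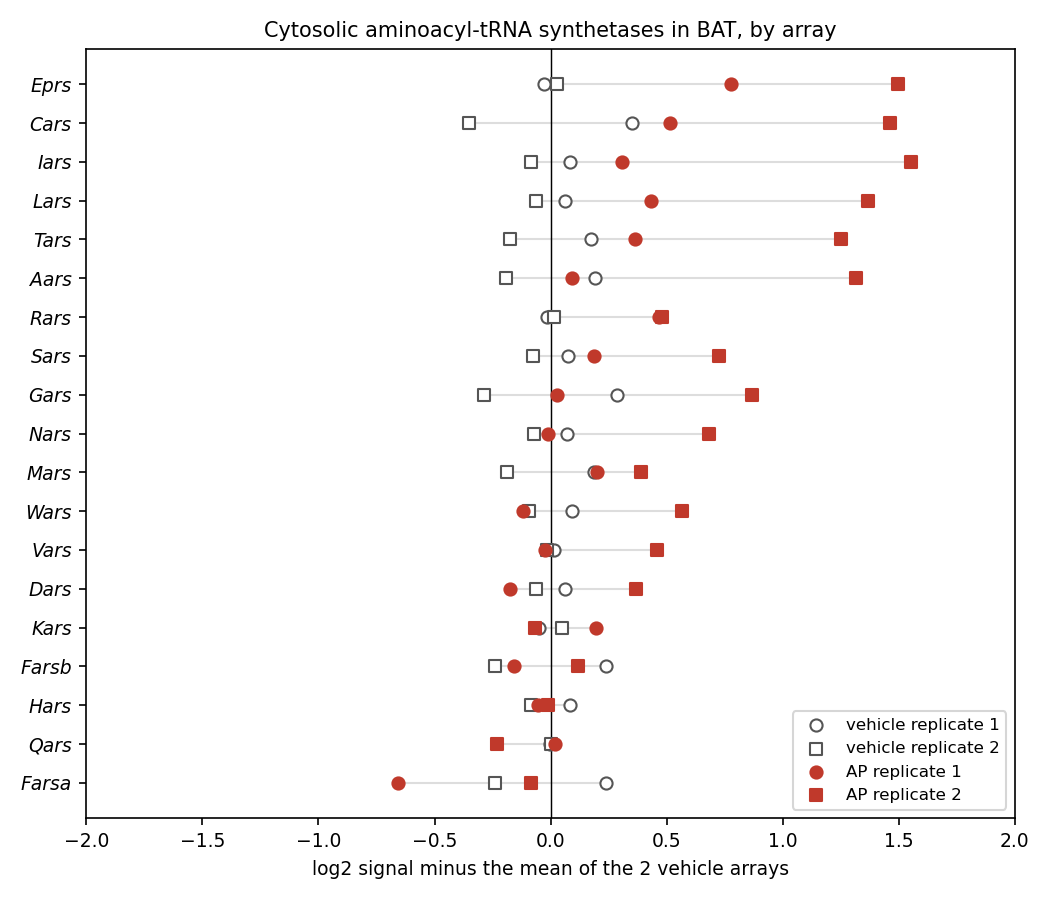
Signal of the 19 tested cytosolic synthetases in each of the 4 mice, as log2 signal minus the mean of the 2 vehicle arrays (x axis), with 1 gene per line ordered by log2 fold change. Open symbols are vehicle-treated and filled symbols AP-treated mice; Eprs at the top has both AP-treated mice above the vehicle-treated mice, and AP replicate 2 lies above AP replicate 1 in 17 of the 19 genes.

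The 2 AP-treated mice contributed unequally. Measured against the mean of the vehicle-treated mice, the median cytosolic synthetase was 0.09 higher in AP replicate 1 and 0.57 higher in AP replicate 2. AP replicate 2 was the highest of the 4 mice in 14 of the 19 genes, where 21.5% of all genes tested had it highest. It lay above AP replicate 1 in 17 of the 19, where 48.8% of all genes did. This order was not particular to the cytosolic set. AP replicate 2 lay above AP replicate 1 in 12 of the 15 tested mitochondrial synthetases, all 9 brown adipocyte markers and all 5 general adipocyte markers. It was the highest of the 4 mice in 3 of those 15, 2 of the 9 and 2 of the 5. AP replicate 1 lay above both vehicle-treated mice in 10 of the 19 and AP replicate 2 in 14, where 34.5% and 33.4% of all genes did.

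The result thus rests largely on 1 mouse. Without AP replicate 2 the log2 fold changes were 0.78 for Eprs, 0.51 for Cars, 0.43 for Lars, 0.36 for Tars, 0.31 for Iars and 0.09 for Aars, and the median of the 19 was 0.09. Without AP replicate 1 they were 1.50 for Eprs, 1.46 for Cars, 1.37 for Lars, 1.25 for Tars, 1.55 for Iars and 1.32 for Aars, and the median was 0.57. All 8 genes of the ISR check were higher in AP replicate 2 than in AP replicate 1. Atf3, a stress-induced transcription factor on that list, was however at 0.11 and -0.15 with vehicle and -1.17 and -0.11 with AP, and in Atf4 and Ppp1r15a, too, vehicle replicate 1 lay above AP replicate 1.

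ATF4 with a C/EBP partner is known to bind the C/EBP-ATF response element, so the promoters of the cytosolic synthetases were read for it. The letters TTGCATCA were searched on both strands of the 300 bases from 250 before to 50 after the annotated start of each gene, in the RefSeq promoter windows of GRCm38.p6, and the looser TTNCATCA, which includes TTGCATCA, was searched in the same way. A window was at hand for 30 of the 39 genes and not used here for the other 9. TTGCATCA was in 4 of the 13 cytosolic windows (30.8%), those of Aars, Iars, Tars and Yars, in none of the 14 mitochondrial windows and in none of the 3 scaffold windows. Of all 27025 genes with a window, 279 held it (1.03%). The looser form was also in Gars, giving 5 of 13 cytosolic windows (38.5%), against 1219 of 27025 genes (4.51%).

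The stretches of 60 bases that hold these letters are shown for those 5 genes. Among the genes described here, no other window held either form. Each stretch is 5′ to 3′ on the strand of the gene, with the matching letters in capitals. They are chr8:111033704-111033763 for Aars, chr13:49682100-49682159 for Iars, chr4:129189873-129189932 for Yars and chr6:55037945-55038004 for Gars, all on the + strand, and chr15:11399640-11399699 on the - strand for Tars.
Aars: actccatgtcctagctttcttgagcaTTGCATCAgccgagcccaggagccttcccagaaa
Iars: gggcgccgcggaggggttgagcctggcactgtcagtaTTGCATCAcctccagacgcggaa
Tars: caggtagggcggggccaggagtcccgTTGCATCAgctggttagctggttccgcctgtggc
Yars: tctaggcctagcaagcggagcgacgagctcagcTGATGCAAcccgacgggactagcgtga
Gars: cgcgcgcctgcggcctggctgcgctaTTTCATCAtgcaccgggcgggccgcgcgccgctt

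The match began 112 bases before the annotated start in Aars, 15 before it in Tars and 30 before it in Gars, and within the first bases of the transcript in Iars, at base 8, and Yars, at base 4. Aars also held TTTCATCA, a looser match, from base 10 of the transcript. In Yars the letters lie on the opposite strand and so read TGATGCAA. A match is a description of the letters, and binding was not measured here.

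Of the cytosolic genes with a window, the 3 tested with TTGCATCA (Aars, Iars and Tars) had a median log2 fold change of 0.81, and the 9 tested without it had a median of 0.10. Over all genes the letters went with a small difference: the 80 tested genes whose window held TTGCATCA had a median of 0.11, with 46 higher, and the 10097 without it a median of 0.01. Eprs had a window without either form of these letters, and Cars, Lars and Rars were among the genes with no window used here.

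Of the 3 scaffold proteins of the multisynthetase complex, Aimp1 and Eef1e1 were higher in both AP-treated mice. Aimp1 was at 3.55 and 3.21 with vehicle and at 3.90 and 3.79 with AP, giving a log2 fold change of 0.47 ± 0.23 (SE). Eef1e1, also known as AIMP3, was at 0.89 and 0.83 against 1.09 and 1.57, a log2 fold change of 0.47 ± 0.25 (SE). For neither gene did the groups overlap, and both had a limma adjusted p of 0.80.

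Aimp2 was at 3.88 and 3.94 with vehicle and 3.85 and 4.20 with AP, giving a log2 fold change of 0.12 ± 0.23 (SE), and its groups overlapped. Its sign also turned, to -0.04, in the authors' log2 table. The 8 cytosolic synthetases held in this complex (Dars, Eprs, Iars, Kars, Lars, Mars, Qars and Rars) had a median log2 fold change of 0.38, with 7 higher and 5 with both AP-treated mice above. The 11 tested outside it had a median of 0.34, with 8 higher and 3 with both above, where 51.4% of all genes were higher and 20.1% had both above. This split, and that into the structural classes of synthetases, was made after the values had been seen and is a description only. Class I cytosolic enzymes had a median of 0.38 over 8 genes and class II enzymes 0.22 over 10, with Eprs, which belongs to both classes, left aside.

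The mitochondrial synthetases showed no common direction. Of the 15 tested, 7 had a higher mean with AP and 8 a lower one, and their median log2 fold change was -0.03, though it was 0.06 when arrays were scaled to their median and 0.03 when all probes of a gene were averaged. In 4 of the 15 both AP-treated mice lay below both vehicle-treated mice (Wars2, Cars2, Lars2 and Aars2) and in 3 both lay above (Hars2, Rars2 and Pars2), against the 17.3% and 20.1% of all genes given above. AP replicate 1 lay below both vehicle-treated mice in 7 of the 15 and AP replicate 2 in 4, where 32.4% and 30.2% of all genes did. At an unadjusted limma p under 0.05 there were 2 lower genes, Wars2 and Lars2, and no higher one by the brighter probe of each gene, where 2.26% of all genes were lower and 3.78% higher.

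Wars2 encodes the mitochondrial tryptophan enzyme, and its 2 probes differed. Its brighter probe was at -1.01 and -1.17 with vehicle and -2.69 and -2.16 with AP. Both AP-treated mice lay far below, with a log2 fold change of -1.34 ± 0.27 (SE), or 0.396 of the vehicle level, an unadjusted limma p of 0.0055 and an adjusted p of 0.80. The other Wars2 probe did not show it: it was at -2.12 and -3.20 with vehicle and at -2.32 and -2.66 with AP, with overlapping groups and a log2 fold change of 0.17 ± 0.42 (SE). The probes of Wars2 therefore disagree, and averaging both gave -0.58. With normexp background correction the brighter probe gave -0.52, less far from 0 than Lars2 at -0.60 and Cars2 at -0.60.

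Lars2, the mitochondrial leucine enzyme, was at 3.38 and 3.22 with vehicle and at 2.71 and 2.78 with AP, giving a log2 fold change of -0.56 ± 0.21 (SE) or 0.680 of the vehicle level. Both groups were tight and did not overlap, the unadjusted limma p was 0.046 and the adjusted p 0.80. Leaving out any 1 mouse gave values between -0.63 and -0.48.

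Cars2, for cysteine, was at 2.63 and 2.02 with vehicle and at 1.54 and 1.78 with AP, giving a log2 fold change of -0.67 ± 0.29 (SE). Its groups did not overlap, but those of its dimmer probe did, at -0.04 and -0.49 against -0.63 and -0.20. Ears2, for glutamate, had a log2 fold change of 0.67 ± 0.39 (SE), from 0.75 and -0.11 with vehicle and 0.74 and 1.25 with AP. Its groups overlapped, since AP replicate 1 lay just under vehicle replicate 1.

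The remaining mitochondrial genes differed less. Hars2, for histidine, was at 2.26 and 1.81 with vehicle and at 2.67 and 2.46 with AP, giving a log2 fold change of 0.53 ± 0.26 (SE), and both AP-treated mice lay above. Rars2 and Pars2, for arginine and proline, each had a log2 fold change of 0.23 with both AP-treated mice above; a dimmer probe of Pars2, not well above background in vehicle replicate 1, was at -3.58 and -3.43 with vehicle and -2.86 and -2.98 with AP, with an unadjusted limma p of 0.041 and an adjusted p of 0.80. Aars2 and Sars2, for alanine and serine, had -0.32 and -0.31. Mars2, for methionine, was at -2.24 and -2.18 with vehicle and at -2.98 and -1.76 with AP, so the AP-treated mice lay on either side of both vehicle-treated mice.

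Vars2, Iars2, Yars2, Fars2 and Tars2, for valine, isoleucine, tyrosine, phenylalanine and threonine, had log2 fold changes between -0.16 and 0.15, all with overlapping groups. All 5 took the other sign in at least 1 alternative: Tars2 at 0.06 with the median of each array, Vars2 at 0.09 with all probes averaged, and Iars2, Yars2 and Fars2 at -0.01, -0.13 and -0.14 in the authors' log2 table. The other tested mitochondrial genes, lower or higher, kept theirs in all alternatives run, apart from Mars2 without AP replicate 1. Nars2, for asparagine, was well above background only in vehicle replicate 1, at -3.05, and measured -4.43, -3.64 and -4.24 in the other mice. Vehicle replicate 2 lay below vehicle replicate 1 in 13 of the 15 tested mitochondrial genes, where 59.6% of all genes did. The same held in 15 of the 19 tested cytosolic genes.

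**Figure D2:**
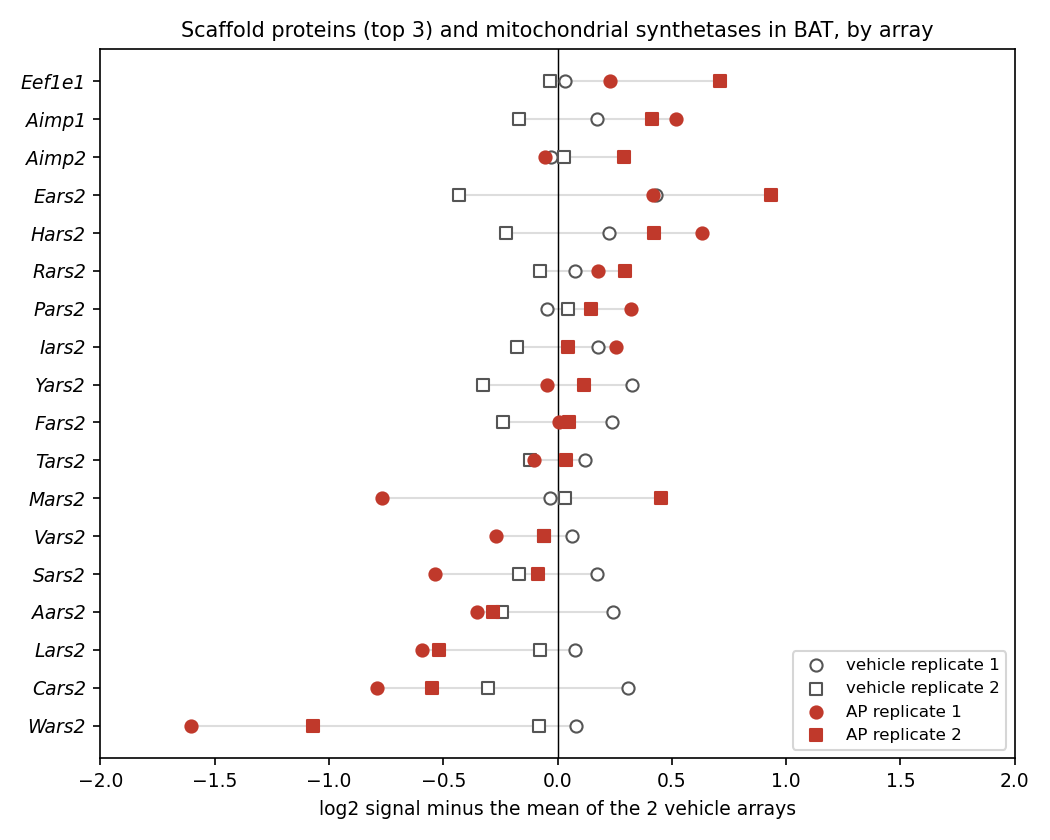
Signal of the 3 scaffold genes and the 15 tested mitochondrial synthetases in each mouse, as log2 signal minus the mean of the 2 vehicle arrays (x axis), with 1 gene per line. Open symbols are vehicle-treated and filled symbols AP-treated mice; Wars2, Cars2 and Lars2 at the bottom have both AP-treated mice to the left of both vehicle-treated mice, and the middle of the plot shows mixed order.

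Setting each cytosolic enzyme beside the mitochondrial enzyme for the same amino acid gave 14 pairs, of which 12 had both members tested. Phenylalanine, with its separate cytosolic subunits, and proline, whose cytosolic enzyme Eprs was already set beside Ears2, were left out of the pairs; Farsa and Farsb were at -0.37 and -0.02 beside Fars2 at 0.03, and Eprs at 1.14 beside Pars2 at 0.23. In 11 of the 12 the cytosolic gene had the higher log2 fold change, and the median difference between the fold changes was 0.77. Without AP replicate 2 that median was 0.45, and without AP replicate 1 it was 1.01 with the cytosolic gene higher in 10 of the 12. Wide gaps were those of cysteine, with Cars at 0.99 and Cars2 at -0.67, tryptophan, with Wars at 0.23 and Wars2 at -1.34, and leucine, with Lars at 0.90 and Lars2 at -0.56. The gap for tryptophan came from the Wars2 probe whose partner did not show the difference. Among the 12, histidine ran the other way, with Hars at -0.03 and Hars2 at 0.53.

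**Figure D3:**
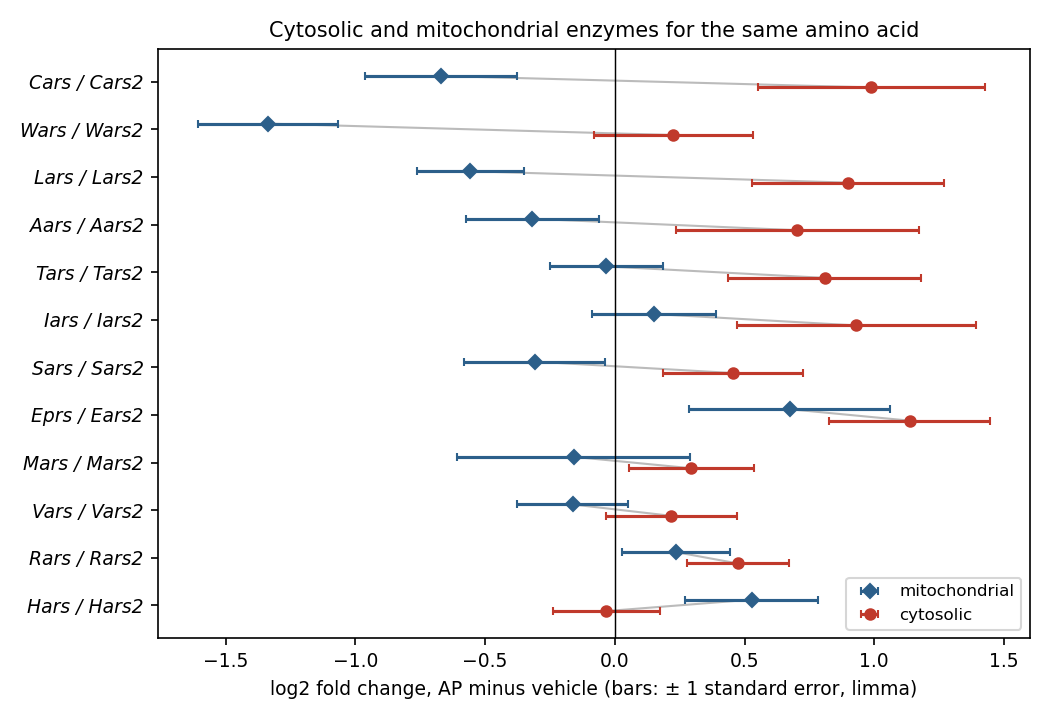
Log2 fold change, AP minus vehicle, of the cytosolic and the mitochondrial synthetase of each amino acid for the 12 pairs with both tested, joined by a line per amino acid, with bars of 1 SE from limma on either side. The cytosolic value lies to the right in 11 pairs, and the histidine pair is reversed.

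Mouse by mouse, the median deviation of each set from its gene means was taken. It was -0.09 and -0.24 with vehicle and -0.04 and 0.46 with AP for the cytosolic genes, and 0.14 and -0.08 against -0.08 and 0.03 for the mitochondrial genes. The cytosolic minus the mitochondrial median was -0.24 and -0.15 with vehicle and 0.04 and 0.42 with AP, so that both AP-treated mice lay above both vehicle-treated mice on this measure. AP replicate 1 was nearer to the vehicle-treated mice than to AP replicate 2.

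Of 18 other genes of tRNA charging, all tested, 10 had a higher and 8 a lower mean with AP, where 51.4% of all genes had a higher one, and the median log2 fold change was 0.01, the same as over all genes. Both AP-treated mice lay above in 2, Trnt1, which adds the CCA end to tRNAs, at 0.42, and Dtd1, a deacylase that removes D-amino acids from tRNA, at 0.14. Both lay below in 4, among them Qrsl1, a subunit of the mitochondrial glutamyl-tRNA amidotransferase, at -0.51, and the elongation factor subunits Eef1g and Eef1a1, at -0.19 and -0.13. Over all genes 20.1% had both above and 17.3% both below. None of the 18 had an unadjusted limma p under 0.05, a level reached by 3.78% of all genes as higher and 2.26% as lower. No test compared this list with the cytosolic synthetases.

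Markers of other cell types were read in the same mice. All 11 skeletal muscle genes were tested and all 11 were highest in vehicle replicate 2 and lowest in vehicle replicate 1; their summed linear signal, in units of the 75th percentile, was 72.3 and 698 with vehicle and 463 and 266 with AP, and Myh4 was the brightest. All 11 had a higher mean with AP, as the cytosolic synthetases mostly had, with a median log2 fold change of 0.84, but in all 11 the groups overlapped. Of 12 lymphocyte and antigen presentation genes 7 were tested, all highest in vehicle replicate 2, with sums of 49.0 and 154 against 57.6 and 54.7 and H2-Eb1 the brightest and all 7 lower in mean with AP (median -0.64); the 5 that were not include Cd3g, Cd79a, Cd8a and Ms4a1. Of 9 macrophage genes 7 were tested, with sums of 32.8 and 40.8 against 24.9 and 25.3 and Itgam the brightest; Cd68 and Cd163 were not. All 7 macrophage genes had a lower mean with AP, with a median log2 fold change of -0.40, and in 1 of them both AP-treated mice lay below. Over all genes 51.4% had a higher mean with AP, 20.1% had both AP-treated mice above and 17.3% both below. Of 7 white adipose genes, all tested, 3 had a higher and 4 a lower mean, with a median of -0.38; both AP-treated mice lay below in 3 of them, Lep, Npr3 and Retn, and above in 1. Their sums were 89.2 and 93.6 against 74.2 and 87.2, with Retn the brightest. Of 5 erythroid genes 4 were tested, all with a lower mean with AP and a median of -0.44, with both AP-treated mice below in 1, sums of 775 and 466 against 376 and 517 and Hba-a1 the brightest. AP replicate 2, where the cytosolic synthetases stood highest, was not the highest mouse for the sum of any of these 5 lists. It lay above AP replicate 1, however, in all 9 brown adipocyte and all 5 general adipocyte markers, where 48.8% of all genes did. The part of any of these lists in the result was not tested. In whole tissue fewer cells of a type and less RNA per cell cannot be told apart.

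**Figure D4:**
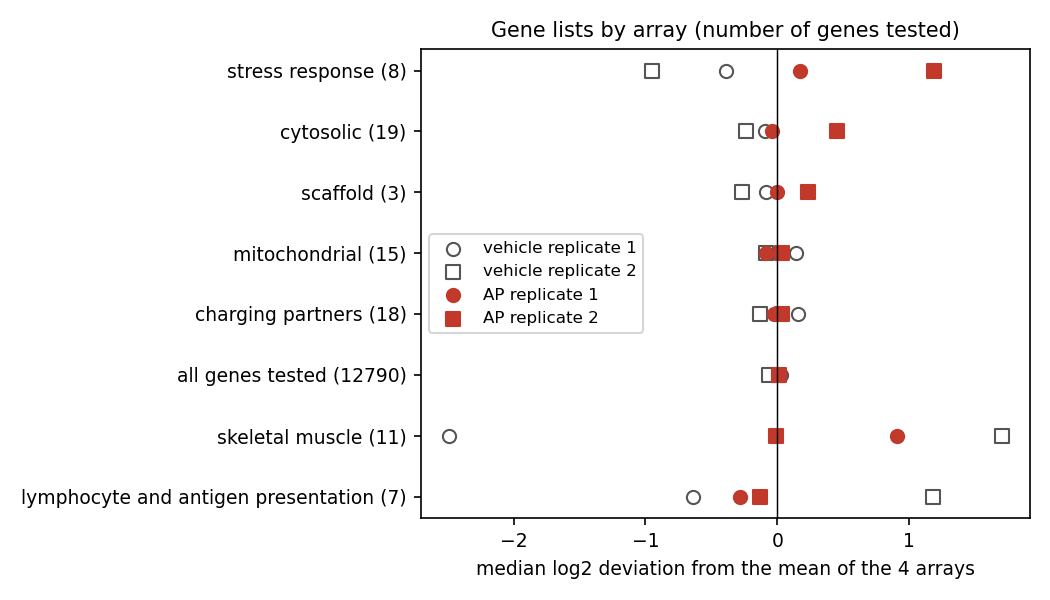
Median, over the tested genes of each list (number in brackets), of the log2 signal minus the gene's mean over the 4 mice (x axis), with 1 symbol per mouse. The cytosolic synthetases run from vehicle replicate 2 at -0.24 to AP replicate 2 at 0.46, in the same order of mice as the median of the ISR genes, whereas the muscle genes run from vehicle replicate 1 to vehicle replicate 2.

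All 4 arrays shared 1 slide and 1 scan. Each array's barcode ends in 2 position numbers. The second was 1 for both vehicle arrays and 3 and 4 for the AP arrays. The first was 2 for vehicle replicate 2 and 1 for the other arrays. Which number is the row is not stated. Position and treatment cannot be told apart. Pearson's r over the tested probes was 0.972 for the vehicle pair of arrays and 0.981 for the AP pair, in which 9.02% and 8.41% of probes, respectively, lay 2-fold or more apart.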

How the data were processed

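Total RNA of BAT was labeled with Cy3 and hybridized to 1 array per mouse. Scans were read by the authors in Feature Extraction 10.7.1.1, and the deposited intensity of each spot is background-subtracted but not normalized between arrays. A deposited table also holds log2 values of the same arrays, made by the authors; its differences between arrays correlated with those of the intensities (lowest Pearson's r 0.999 over 29061 probes), its array medians were -0.28, -0.16, -0.44 and -0.29, and how it was scaled and centred is not stated. It was used as an alternative.

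Control spots and spots marked as outliers were left out, each array's 75th percentile was subtracted from its processed signals on the log2 scale, and spots of a probe were averaged. Probes well above background on both arrays of at least 1 group were kept, 24970 of 55681. The contrast of AP with vehicle was fitted in limma 3.58.1 (lmFit, then eBayes; R 4.3.3) with group as the only term, with Benjamini-Hochberg adjustment over all probes; the fit was checked on simulated data. The labels give a replicate number within each group, and the legend of the experiment gives n = 2. Each replicate was taken as a separate mouse, and on that reading p-values measure the spread between mice.

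Accessions were matched to a RefSeq gene table of GRCm38.p6, for names only, since the array design names another build; 26582 probes took a symbol of 20145 genes. The probe with the highest mean signal stands for a gene. No column of another sample was present.

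The genes and lists were chosen with earlier results of these data known. Some members of the further lists are counted but their own values are not reported here. Values in every mouse are given for the 6 cytosolic and 4 mitochondrial genes with the largest absolute log2 fold change and for the scaffold genes, and, chosen after their values were seen, for Rars, Gars, Pars2, Hars2, Mars2, Yars and Nars2. Alternatives were normexp (offset 50, on the median spot signal), quantile and median scaling, no filter, a filter on all 4 arrays, the authors' table, a variance trend, a replicate block, omission of single mice, averaging of a gene's probes, and the methods' t-test. A block with crossed replicate numbers was added after seeing the data.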

Additional observations from a re-analysis of the deposited data

How the results depend on the processing

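No probe passed an adjusted p of 0.05 under any alternative that was run, by limma or by the methods' t-test; at an unadjusted p under 0.05 the count went from 1515 to between 729 and 2610, the lowest being with genes in place of probes and the highest without a filter; the methods' t-test gave 1478. The cytosolic median of 0.34 ranged from 0.18 in the authors' table to 0.43 with the median of each array, and from 0.09 to 0.57 when a mouse was left out. The cytosolic minus mitochondrial median of 0.37 ranged from 0.21 to 0.49, and from 0.19 to 0.52 when a mouse was left out. The cytosolic genes at an unadjusted p under 0.05 and higher went from 1 to 4 with normexp, 5 with the median of each array, 2 with a variance trend, 6 without AP replicate 1 and 0 without any other mouse. With a mouse left out, the lone mouse of its group is assumed to vary like the other group, so these 2 counts show neither support nor loss. The authors' table moved the median of all genes by -0.16; relative to all genes the cytosolic median was 0.33 there and in the values reported.

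The mitochondrial median of -0.03 was 0.059 with the median of each array, -0.19 in the authors' table, 0.026 with the mean of all probes and -0.21 to 0.088 when a mouse was left out. Genes with both AP-treated mice on 1 side of the vehicle-treated mice numbered 17, and 25 to 28 when a mouse was left out, as fewer mice have to be separated. The median of all genes, 0.01, was -0.0081 with normexp, -0.15 in the authors' table and -0.018 to 0.064 with a mouse left out. Signs turned for Farsb (0.071), Hars (0.060) and Tars2 (0.059) with the median of each array, for Dars (-0.066), Kars (-0.097), Fars2 (-0.14), Iars2 (-0.011), Yars2 (-0.13) and Aimp2 (-0.044) in the authors' table, and for Tars2 (0.019) and Vars2 (0.093) with the mean of all probes; the cause was not tested. With a mouse left out, the ranges that crossed 0 were -0.26 to 0.22 for Farsb, -0.11 to 0.050 for Hars, -0.066 to 0.20 for Kars, -0.18 to 0.37 for Dars, -0.0092 to 0.68 for Nars, -0.23 to 0.017 for Qars, -0.023 to 0.46 for Vars, -0.12 to 0.57 for Wars, -0.15 to 0.088 for Tars2, -0.21 to 0.26 for Fars2, -0.027 to 0.33 for Iars2, -0.29 to 0.36 for Yars2, -0.77 to 0.45 for Mars2 and -0.057 to 0.29 for Aimp2.

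Mice of the same number did not deviate together (r = -0.13 over 24970 probes), so they share only a number. With the replicate number as a block 0 probes passed the adjusted threshold and 1227 the unadjusted one, and the cytosolic and mitochondrial medians stayed at 0.34 and -0.03. With crossed numbers as the block, added after seeing the data, these counts were 0 and 1567, and 4 cytosolic genes were at an unadjusted p under 0.05. Slide and scan as a block could not be run, as there was 1 of each. The number of arrays, 2 per group, limits the precision, and Yars and Nars2 were not well above background on most arrays. With normexp the dim probes of Rars and Wars2 moved from 0.47 to 0.17 and from -1.34 to -0.52.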
